A study of Homo sapiens with 4 samples.

Results

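The genes described here are 48 protein-coding genes that copy DNA or are used mainly while DNA is copied in S phase, measured in HCC1954 cells with a control hairpin or a hairpin against ZDHHC15. They were taken by symbol from the protein-coding rows of a count table of 58735 genes, with no measured value in the rule, and all 48 were among the 15817 genes that passed the filter on low counts and were tested. HCC1954 is an established line of ERBB2-amplified breast cancer cells, and ZDHHC15 encodes a palmitoyltransferase, an enzyme that attaches a fatty acid to cysteines of other proteins. The study asked how loss of ZDHHC15 changes the RNA of these cells, as part of work on palmitic acid and YAP signaling. Total RNA was sequenced in 4 samples, 2 named shCON that received a scrambled hairpin and 2 named shZDHHC15 that received a hairpin against ZDHHC15. In both groups the labels state transient transfection with GIPZ plasmids and harvest at 36 h, while the study's text speaks of depleted lines, so whether the cells were a selected line is not settled by the sources used here. The labels do not say which hairpin sequence was used or whether the 2 samples of a group were separate cultures. P-values therefore measure only the spread between these samples, which may be technical, and a permutation of 2 against 2 samples cannot give a two-sided p below 0.333.

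Before a cell copies its genome, the origin recognition complex, CDC6 and CDT1 load the MCM2-7 ring onto DNA at origins, and CDC45 and the GINS complex then turn that ring into a working helicase. Polymerase alpha with primase lays down primers, polymerases delta and epsilon extend them with the PCNA clamp, and FEN1 and LIG1 join the pieces of the lagging strand. Many of these genes are transcribed by E2F factors at the passage from G1 to S phase, whereas genes of mitosis are read later through another promoter element, the cell cycle genes homology region (CHR). In bulk RNA, a change in the share of cells that are in S phase and a change in RNA per cell cannot be told apart.

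ZDHHC15 was checked first. Both control samples had many reads of it, 17617 in the first and 15716 in the second, and the count was 0 in each shZDHHC15 sample. Against a floor of 3 counts per library, which a count of 0 allows, its level was at least 6053-fold lower (adjusted p = 1.85e-14, edgeR's quasi-likelihood test). A count of 0 in both samples is a more complete loss than a hairpin usually gives, and its source was not tested. Libraries held 17560982 to 19118704 counts. The mitochondrial share was 2.18% and 2.07% in shCON and 2.58% and 2.63% in shZDHHC15, and 23739 and 23153 against 24743 and 24773 genes were detected. The line's markers ERBB2, GRB7, EPCAM and CDH1 were present in every sample. The summed level of the 7 epithelial markers was 16500.1 and 17706.1 CPM (counts scaled to a library of 1e6) in shCON. In shZDHHC15 it was 10242.2 and 10293.0 CPM. KRT8, KRT18, GRB7, EPCAM and ERBB2 fell in shZDHHC15, with log2 fold changes of -1.62, -1.58, -0.39, -0.35 and -0.24. KRT19 went the other way and rose by 0.44, and CDH1 (-0.05) did not pass the test. The leukocyte markers CD3D, CD3E and MS4A1 were at 0 in all samples. CD14 had 9 and 5 counts in shCON and 25 and 22 counts in shZDHHC15. These counts are low, and CD14 passed the filter only through shZDHHC15, so no test of it is given. Of 7 fibroblast and endothelial markers, 3 were tested and all 3 were higher, with sums of 54.1 and 57.1 CPM in shCON against 113.0 and 105.2 CPM in shZDHHC15. These shares and marker levels differed between the groups, and their part in the differences below was not tested.

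Across the 48 genes, 15 rose and 4 fell in shZDHHC15 at an adjusted p under 0.05 (edgeR's quasi-likelihood test, Benjamini-Hochberg adjustment over all tested genes), and 29 did not pass. With library sizes alone as the scaling, 24 rose and 2 fell. The share that rose was 31.25%, beside 21.7% of all tested genes, and the share that fell was 8.33%, beside 20.3%. Among tested protein-coding genes alone, as all members are, 23.8% rose and 22.1% fell. These shares of all tested genes also stand beside each count of rises and falls given below. The shifts were small. The median log2 fold change was 0.18 against 0.02 for all tested genes, the range was -0.56 to 0.98, and no member passed the test with a log2 fold change above 1 or below -1, where 7.51% and 3.79% of all genes lay (26 members had an unadjusted p under 0.05, and DESeq2 called 13 rises and 4 falls of any size). Both shZDHHC15 samples lay above both shCON samples for 27 members (background 37.2%) and below them for 15 (background 35.3%), and the groups overlapped for the other members. Over tested protein-coding genes alone these backgrounds were 39.1% and 36.4%. The genes with the largest rises were E2F2, a transcription factor of the G1 to S passage, POLA1, the catalytic subunit of polymerase alpha, MCM10, which helps to start the helicase, and RRM1, the large subunit of ribonucleotide reductase. The 4 that fell were POLD2, GINS3, TK1 and MCM7.

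Many promoters of this set held short E2F-type letters, shown here for members that rose or fell, PCNA among them. Promoter sequence (250 bases before to 50 bases after the start, RefSeq, GRCh38.p14) was listed for 42 of the 48 genes and not for MCM4, MCM5, GINS4, POLD3, RPA2 and RPA3. The letters searched on both strands were TTTCCCGC, TTTGGCGC, TTTCGCGC and TTTGCCGC, and in the windows of 30 bases below they stand in capitals, as read 5′ to 3′ on the gene's own strand (where the capitals start with GCG, the match is on the other strand). E2F2 is at chr1:23531257-23531286 (minus strand), POLA1 at chrX:24693770-24693799 (plus strand), POLA2 at chr11:65261898-65261927 (plus strand), POLE at chr12:132687342-132687371 (minus strand), LIG1 at chr19:48170440-48170469 (minus strand), GINS3 at chr16:58392455-58392484 (plus strand), MCM7 at chr7:100101388-100101417 (minus strand) and PCNA at chr20:5126663-5126692 (minus strand). RefSeq starts can lie inside the gene span of the count table, as for GINS3.
E2F2: gcggcacgacgTTTGGCGCtaaaaaaaaaa
POLA1: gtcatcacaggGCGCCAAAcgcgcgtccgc
POLA2: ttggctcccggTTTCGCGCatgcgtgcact
POLE: tgggtgggagcGCGCCAAAtttctcccctg
LIG1: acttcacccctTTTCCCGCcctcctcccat
GINS3: cgtccccgggcGCGGGAAAcgagtttcaat
MCM7: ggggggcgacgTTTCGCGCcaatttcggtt
PCNA: cagcgtcagggGCGGGAAAaggcgtgcgtt

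Such letters were found in the promoters of 22 of the 42 members (52.4%), beside 3.31% of all 35114 listed promoters and 6.52% of tested protein-coding genes with a listed promoter. They were found in 17 of 55 other replication genes (30.9%) and in 3 of 22 mitotic and G2/M genes (13.6%). The CHR letters TTTGAA, searched on both strands, were found in 3 of 42 members (7.14%) and in 17 of 22 mitotic and G2/M genes (77.3%). They were found in 13.5% of tested protein-coding genes with a listed promoter and in 15.2% of all single promoters. Within the set, rises and falls occurred both with and without the letters. Of the 22 members with E2F-type letters, 8 rose and 2 fell (median log2 fold change 0.23), and of the 20 without them, 6 rose and 2 fell (median 0.18). A match is a description of the sequence and says nothing about binding in these cells.

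Of the E2F activators in the set, E2F2 rose and E2F1 did not pass the test. E2F3, another activator that is not in the set, rose by 0.37 (SE 0.10, adjusted p = 0.0102, edgeR's quasi-likelihood test). E2F2 (ENSG00000007968, chromosome 1, 23506430 to 23531220, minus strand) had 493 and 423 counts in shCON and 936 and 1035 counts in shZDHHC15, that is 26.1 ± 1.39 CPM and 51.5 ± 1.74 CPM (mean ± SD, n = 2). The groups lay far apart, and the log2 fold change was 0.98 with a standard error (SE) of 0.11 (adjusted p = 8.72e-06, edgeR's quasi-likelihood test). E2F1 (ENSG00000101412), the best known activator of the family, had 1805 and 1888 counts in shCON and 1628 and 1813 counts in shZDHHC15, or 105.5 ± 9.14 CPM and 89.9 ± 3.49 CPM (n = 2). Scaled for library size, both E2F1 values of shZDHHC15 lay below both of shCON, but the log2 fold change of -0.23 (SE 0.10) did not pass the test (adjusted p = 0.0812). Per kilobase of transcript, the ratio of the E2F2 level to the E2F1 level was 0.132 and 0.108 in shCON and 0.277 and 0.275 in shZDHHC15, so E2F2 stayed the lower of the pair in every sample. This ratio was chosen after values were seen and restates the fold changes above.

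Origin recognition, licensing and firing genes held 4 rises (40%) and 1 fall (10%) among 10, with a median log2 fold change of 0.24. MCM10 (ENSG00000065328, chromosome 10, 13161554 to 13211104), needed for the helicase to start, had 466 and 409 counts in shCON and 772 and 766 counts in shZDHHC15. Its groups did not overlap, and it rose by 0.69 on the log2 scale (SE 0.12, adjusted p = 0.000265). CDC6 (ENSG00000094804), which loads MCM2-7 at origins, had 2718 and 2317 counts against 3360 and 3406 counts. It rose by 0.31 (SE 0.09, adjusted p = 0.0162). That call was lost with the trend of fold change on transcript length removed, where the log2 fold change was 0.16 (adjusted p = 0.157), and without shCON replicate 2 or either shZDHHC15 sample (adjusted p = 0.0561, 0.137 and 0.0576). CDT1 (ENSG00000167513), its partner in loading, had 2370 and 2488 counts against 2845 and 3025 counts, with no overlap in CPM but a log2 fold change of 0.15 (SE 0.10) that did not pass (adjusted p = 0.246) and ran from 0.04 to 0.24 with 1 sample left out. ORC1, the subunit of the origin recognition complex that comes and goes with the cell cycle, rose by 0.37, and CDC45, which joins the ring with GINS, rose by 0.34. Both calls were lost without shCON replicate 1 (adjusted p = 0.0623 for ORC1 and 0.0991 for CDC45) and without shZDHHC15 replicate 1 (adjusted p = 0.171 and 0.287). ORC6 did not pass.

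Of the 4 subunits of GINS, which sit side by side in 1 complex, only GINS3 passed the test. GINS3 (ENSG00000181938, chromosome 16, 58295080 to 58406144) had 674 and 623 counts in shCON and 490 and 537 counts in shZDHHC15, or 36.9 ± 0.0257 CPM and 26.8 ± 0.736 CPM (n = 2). This was a clear separation of the groups, and GINS3 fell by 0.46 on the log2 scale (SE 0.11, adjusted p = 0.00486). GINS4 and GINS2 had log2 fold changes of -0.16 and -0.14 and GINS1 had 0.32 (adjusted p = 0.0514), and these 3 did not pass the test. GINS3 overlaps the transcript AC009118.2 on the other strand, and reads of such pairs cannot be told apart where counting does not use strand, which the sources used here do not state.

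The MCM2-7 ring, whose 6 subunits are equal in number in the complex, had 1 subunit that rose, 1 that fell and a median log2 fold change of -0.12. Each count is 16.7% of the ring, below the 21.7% and 20.3% of all tested genes that rose and fell. MCM7 (ENSG00000166508, chromosome 7, 100092728 to 100101940) had 6593 and 6841 counts in shCON and 5947 and 6140 counts in shZDHHC15, or 383.6 ± 31.1 CPM and 316.1 ± 4.66 CPM (n = 2). The groups did not overlap, and MCM7 fell by 0.28 on the log2 scale (SE 0.09, adjusted p = 0.0229), a call that was lost without shCON replicate 2 (adjusted p = 0.11) and without either shZDHHC15 sample (adjusted p = 0.107 and 0.143). MCM3 rose by 0.24 (adjusted p = 0.0387), and without any 1 of the 4 samples it no longer passed (adjusted p from 0.0579 to 0.254). MCM2 (ENSG00000073111), which also binds histones, had 1458 and 1437 counts in shCON and 1318 and 1387 counts in shZDHHC15, and its log2 fold change of -0.22 (SE 0.10) did not pass (adjusted p = 0.0832) although its CPM values did not overlap. It passed with the length trend removed (-0.29, adjusted p = 0.0198). The log2 fold changes of MCM5, MCM4 and MCM6 were -0.17, -0.08 and 0.21, and none passed. MCM5 ran from -0.30 to -0.05 with 1 sample left out and passed without shCON replicate 1 (adjusted p = 0.0106). Per kilobase of transcript, the ratio of the MCM3 level to the MCM7 level was 0.667 and 0.596 in shCON and 0.905 and 0.896 in shZDHHC15. This pair, the called rise and the called fall of the ring, was picked after values were seen. Its ratio restates the fold changes above and adds no evidence to them. MCM7 remained the more abundant of the pair per kilobase in all 4 samples. MCM7 overlaps AP4M1, and MCM2 overlaps TPRA1, on the other strand.

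**Figure D1:**
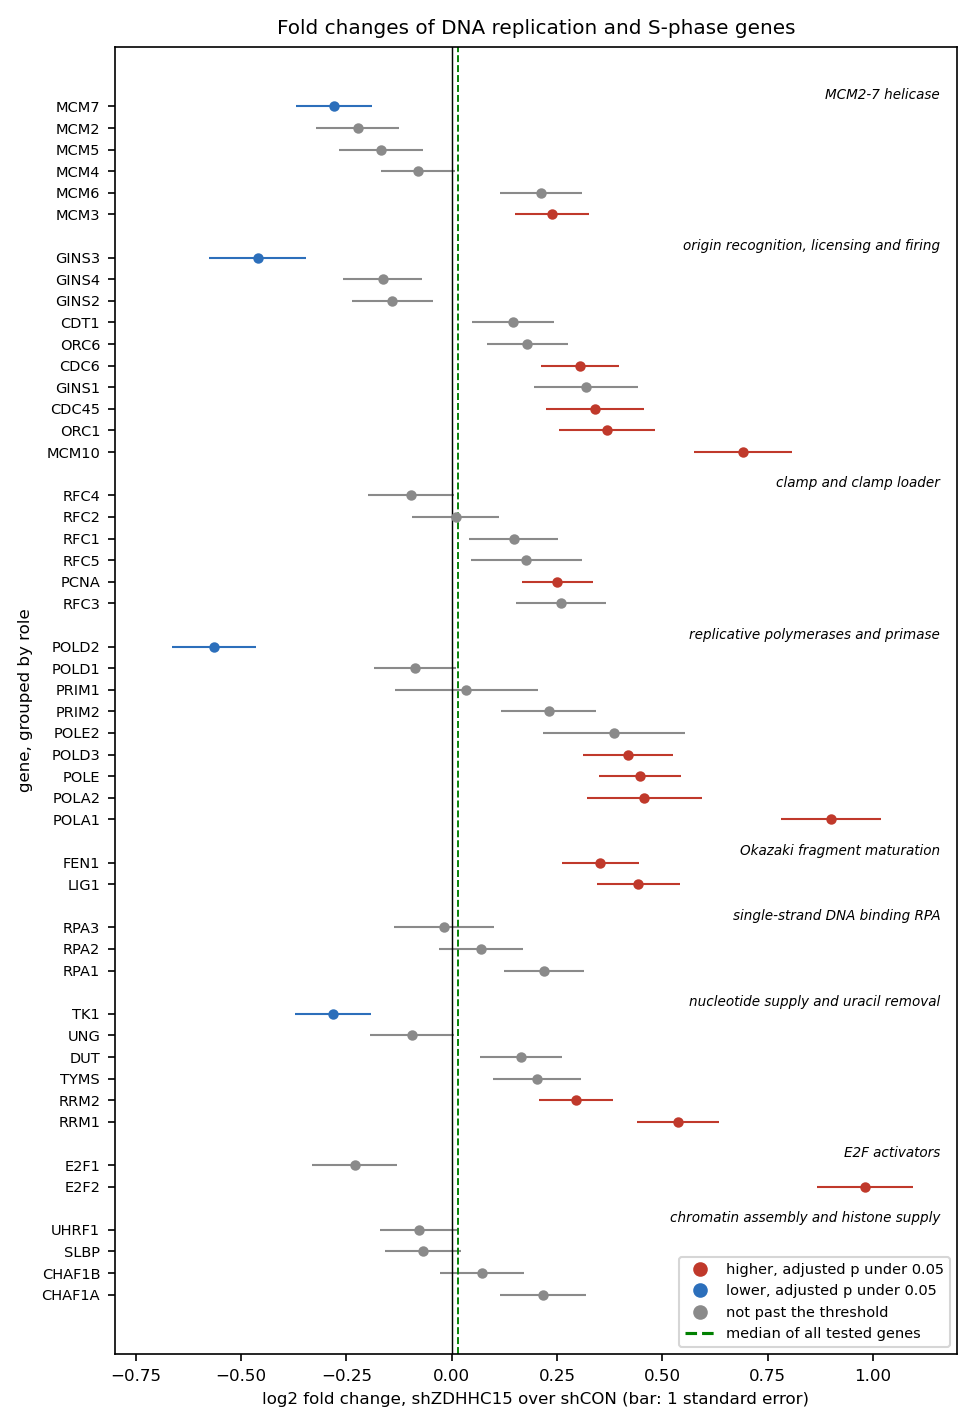
Log2 fold change of shZDHHC15 over shCON for the 48 genes, grouped by role, with bars of 1 standard error from edgeR's quasi-likelihood fit and a dashed line at the median of all tested genes (0.02). Red points rose, blue points fell and grey points did not pass an adjusted p of 0.05, and red and blue points occur together among the MCM2-7, origin, polymerase and nucleotide genes.

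Among the 9 genes of the replicative polymerases and primase, 4 rose (44.4%) and 1 fell (11.1%). Their median log2 fold change was 0.39, near that of the Okazaki genes (0.40), where both members rose. POLA1 (ENSG00000101868, chromosome X, 24693919 to 24996986) had 671 and 503 counts in shCON and 1157 and 1226 counts in shZDHHC15, or 33.3 ± 4.94 CPM and 62.3 ± 0.226 CPM (n = 2). Its rise of 0.90 on the log2 scale (SE 0.12, adjusted p = 3.07e-05) was larger than the gap between the shCON samples. POLA2 (ENSG00000014138, chromosome 11), the second subunit of polymerase alpha, had 309 and 344 counts against 498 and 480 counts. It rose by 0.46 (SE 0.14, adjusted p = 0.0145), and the call was lost without shCON replicate 1 (adjusted p = 0.105) and without shZDHHC15 replicate 1 (adjusted p = 0.099). PRIM1 and PRIM2, the primase subunits of the same complex, had log2 fold changes of 0.04 and 0.23 that did not pass. PRIM2 has near-identical copies elsewhere in the annotation, so its counts are uncertain.

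Polymerase delta showed a split between subunits. POLD2 (ENSG00000106628, chromosome 7, 44114681 to 44124358), an accessory subunit, had 4227 and 4328 counts in shCON and 2852 and 3476 counts in shZDHHC15, or 244.2 ± 17.5 CPM and 165.1 ± 16.9 CPM (n = 2). It fell by 0.56 on the log2 scale (SE 0.10, adjusted p = 0.000407), the largest fall in the set. POLD3 (ENSG00000077514, chromosome 11, 74493851 to 74669117), another accessory subunit, had 759 and 661 counts against 1002 and 1066 counts and rose by 0.42 (SE 0.11, adjusted p = 0.00554). POLD1, the catalytic subunit, had a log2 fold change of -0.09 and did not pass (adjusted p = 0.508). The ratio of the POLD3 level to the POLD2 level per kilobase of transcript was 0.0761 and 0.0647 in shCON and 0.149 and 0.13 in shZDHHC15. As a pair picked after values were seen, it restates their fold changes. POLD4, the smallest subunit and not a member of the set, fell by 0.80 (adjusted p = 0.0043).

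In polymerase epsilon, the catalytic subunit rose and the small subunits POLE3 and POLE4 fell. POLE (ENSG00000177084, chromosome 12, 132623753 to 132687365) had 1257 and 1118 counts in shCON and 1710 and 1818 counts in shZDHHC15, or 67.6 ± 1.89 CPM and 92.2 ± 0.551 CPM (n = 2). It rose by 0.45 (SE 0.10, adjusted p = 0.00196), and with the trend on transcript length removed its log2 fold change was 0.14 (adjusted p = 0.258). POLE2 had 0.39 (SE 0.17) and did not pass (adjusted p = 0.0799). POLE4, a small histone-fold subunit outside the set, fell by 0.91 (adjusted p = 1.64e-05). POLE3, the other histone-fold subunit and also outside the set, had a log2 fold change of -0.25 (adjusted p = 0.0415, edgeR's quasi-likelihood test). Per kilobase of transcript, the ratio of the POLE level to the POLE4 level was 0.12 and 0.0982 in shCON and 0.295 and 0.263 in shZDHHC15. That pair too was picked after values were seen, and the ratio restates the fold changes above.

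**Figure D2:**
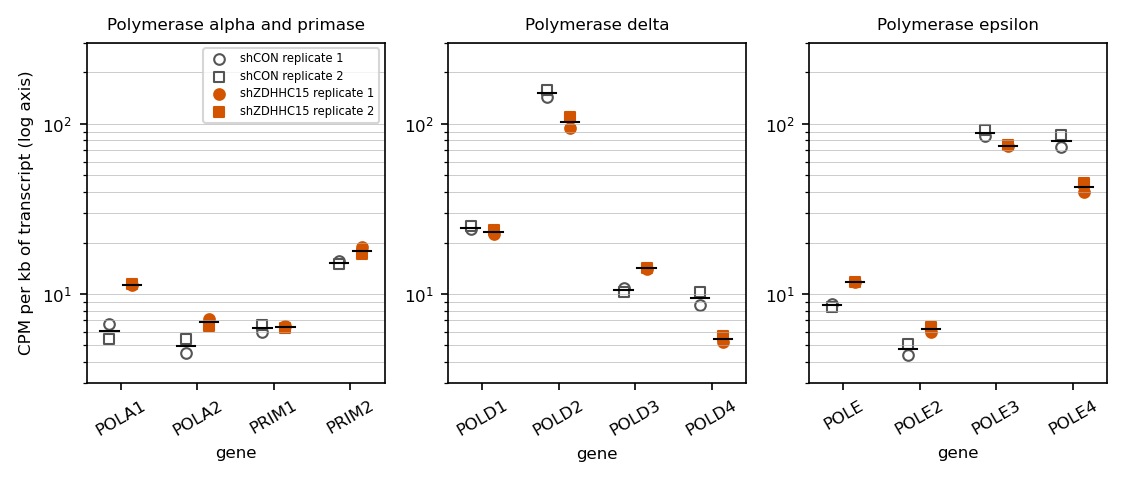
Level of each subunit of polymerases alpha, delta and epsilon in each sample, in CPM per kilobase of transcript on a log axis, with open symbols for shCON, filled symbols for shZDHHC15 and black lines at the group means. POLD2, POLD4, POLE3 and POLE4 fell and POLA1, POLA2, POLD3 and POLE rose in shZDHHC15 by the test. POLD4, POLE3 and POLE4 are subunits outside the set of 48.

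The genes that join Okazaki fragments rose. LIG1 (ENSG00000105486, chromosome 19, 48115445 to 48170603), the DNA ligase of replication, had 1127 and 1073 counts in shCON and 1619 and 1641 counts in shZDHHC15. With no overlap between groups it rose by 0.44 (SE 0.10, adjusted p = 0.00231). FEN1, which removes the flaps ahead of ligation, rose by 0.35 (adjusted p = 0.00632), a call that was lost without shZDHHC15 replicate 1 (adjusted p = 0.0952). FEN1 overlaps FADS2 on the same strand and TMEM258 on the other.

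PCNA was the 1 of 6 clamp and clamp loader genes that rose (16.7%, below the 21.7% of all tested genes). PCNA (ENSG00000132646, chromosome 20, 5114953 to 5126626), the sliding clamp, had 7672 and 7052 counts in shCON and 9434 and 9654 counts in shZDHHC15, or 419.4 ± 1.95 CPM and 499.3 ± 10.5 CPM (n = 2). The groups were well separated, yet the shift was small, with a log2 fold change of 0.25 (SE 0.09, adjusted p = 0.0274), and it did not pass without either shZDHHC15 sample (adjusted p = 0.214 and 0.119). The 5 subunits of replication factor C, which opens and loads the clamp, had log2 fold changes from -0.10 (RFC4) to 0.26 (RFC3, adjusted p = 0.0657), and none passed. None of the 3 genes of RPA, which coats single-stranded DNA, passed either, with values from -0.02 for RPA3 to 0.22 for RPA1 (RPA1 alone had an unadjusted p under 0.05, and DESeq2 called none of the 3). The 4 genes of chromatin assembly and histone supply (CHAF1A, CHAF1B, SLBP and UHRF1) lay between -0.08 and 0.22 with none past the test, none at an unadjusted p under 0.05 and none called by DESeq2. UHRF1 has a near-identical copy elsewhere in the annotation.

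Nucleotide supply held 2 rises (33.3%), 1 fall (16.7%) and 3 genes that did not pass. RRM1 (ENSG00000167325, chromosome 11, 4094707 to 4138876) had 1951 and 1618 counts in shCON and 2816 and 2815 counts in shZDHHC15, or 101.5 ± 7.85 CPM and 147.3 ± 5.54 CPM (n = 2). It rose by 0.54 on the log2 scale (SE 0.10, adjusted p = 0.000493). RRM2 (ENSG00000171848), the small subunit of the same reductase and the one that is limited to S phase, had 5901 and 5086 counts against 7059 and 7618 counts and rose by 0.30 (SE 0.09, adjusted p = 0.0141). Per kilobase of transcript, RRM2 was the more abundant of these subunits in every sample. The RRM2 call was lost without either shZDHHC15 sample (adjusted p = 0.0769 and 0.112).

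TK1 (ENSG00000167900, chromosome 17, 78174075 to 78187233), which salvages thymidine, had 6052 and 6153 counts in shCON and 5242 and 5722 counts in shZDHHC15. It fell by 0.28 (SE 0.09, adjusted p = 0.0207), against the direction of the reductase. With the trend on length removed, TK1 had a log2 fold change of -0.15 (adjusted p = 0.167), and it also lost its call without shCON replicate 2 (adjusted p = 0.0771) and without either shZDHHC15 sample (adjusted p = 0.169 and 0.083). TYMS (ENSG00000176890), which makes thymidylate anew, had 895 and 807 counts in shCON and 1021 and 1113 counts in shZDHHC15. Its CPM values did not overlap, but the log2 fold change of 0.20 (SE 0.10) did not pass (adjusted p = 0.133). With the length trend removed it was 0.34 and passed (adjusted p = 0.00966). TYMS overlaps ENOSF1 and TYMSOS on the other strand. DUT and UNG, which keep uracil out of DNA, had log2 fold changes of 0.16 and -0.09 and did not pass.

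Fold changes in these libraries moved with transcript length. Over the 48 members Spearman's rho between log2 fold change and transcript length was 0.35, and over 12950 tested protein-coding genes it was 0.32, both across genes that share the same 4 libraries and given as a description only. The ratio of shCON replicate 1 to shCON replicate 2, where no treatment differs, had a rho of 0.38 with length over the members and 0.39 over the protein-coding genes. Among the 24 shorter members (1237 to 3076 bases) 4 rose and 4 fell. Among the 24 longer ones (3157 to 7840 bases) 11 rose and 0 fell. Of these longer members only MCM2 was lower at an unadjusted p under 0.05, and DESeq2 called no fall there. Over all tested genes of any length, 21.7% rose and 20.3% fell. E2F2, POLA1 and POLE are among the longer genes, while POLD2, GINS3 and TK1 are among the shorter. The part of length in the differences was not tested as a cause. With the trend on length removed, a setting chosen after seeing the data, 20 members rose and 5 fell. Of the original calls, 12 of the 15 rises and 3 of the 4 falls were among them. With GC content removed as well, 21 rose and 5 fell, with 13 and 3 of the original calls among them.

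Calls for 6 members, E2F2, LIG1, MCM10, POLA1, POLD2 and RRM1, stood in all 16 alternative fits, including each of the 4 without 1 sample, although none of the 6 has a log2 fold change beyond 1. The other 13 called members lost their call in at least 1 of these fits. Without shZDHHC15 replicate 1, 7 members rose and 2 fell. Without shCON replicate 1, 7 fell, and without shCON replicate 2 or shZDHHC15 replicate 2, 2 fell. Of the 29 that did not pass, 17 passed in at least 1 of these fits, namely CDT1, CHAF1A, DUT, E2F1, GINS1, GINS4, MCM2, MCM5, MCM6, ORC6, POLE2, PRIM2, RFC3, RFC5, RPA1, RPA2 and TYMS. For E2F1 this was the fit without shCON replicate 1 (-0.34, adjusted p = 0.00617) and the fit with a replicate block. Among the called members, RRM1 and LIG1 overlap a transcript on the other strand, the same limit as for GINS3. POLA2, POLD3 and RRM2 overlap one on the same strand, where strand does not separate the reads.

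Genes of replication that were not in the set were listed by role to place the 48 among them. Of these 69 genes, 27 rose (39.1%, beside 21.7% of all tested genes), 12 fell (17.4%, beside 20.3%) and 30 did not pass. Their median log2 fold change was 0.20. The falls were 6 without shZDHHC15 replicate 1 and 7 without shZDHHC15 replicate 2. The largest rise was that of SAMHD1, which breaks down deoxynucleotides and is also induced by interferon, with 408 and 363 counts in shCON and 3840 and 3379 counts in shZDHHC15 (log2 fold change 3.11, SE 0.12, adjusted p = 6.03e-11). CCNE2, a cyclin E, rose by 1.05, SKP2, which marks the inhibitor CDKN1B for destruction, by 0.91, and RB1, which holds E2F factors in check, by 0.83. CCNE1, the other cyclin E, rose by 0.42 (adjusted p = 0.00585). That call was lost without shZDHHC15 replicate 2 (adjusted p = 0.0823). CDC25A (0.09) and RBL1 (0.29) did not pass. With 1 sample left out, CDC25A ran from 0.02 to 0.15 and RBL1 from 0.15 to 0.41, and RBL1 passed without shCON replicate 1 (adjusted p = 0.0309). The largest falls were those of POLE4 and POLD4, given above with their polymerases, of IMPDH2, an enzyme of guanine nucleotide synthesis (-0.77), and of RNASEH2C, a subunit of the RNase that removes RNA from DNA (-0.64). By role, 9 of 19 other fork and clamp genes rose (47.4%) and 6 fell (31.6%). Of 8 S-phase cyclins and regulators, 4 rose (50%) and 1 fell (12.5%). Among other chromatin copying genes 5 of 8 rose (62.5%), and among E2F, RB and DP genes 4 of 11 rose (36.4%). Other nucleotide supply genes had 2 rises (22.2%) and 4 falls (44.4%) among 9. Other origin and licensing genes had 3 rises (21.4%) and 1 fall (7.14%) among 14. Rises in the last 2 roles were near the share of all tested genes (21.7%).

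Genes of the later cell cycle lay on the other side of the median. Of 28 mitotic and G2/M genes, 1 rose (MKI67, 0.72), or 3.57% beside 21.7% of all tested genes. In the same list 16 fell, or 57.1% beside 20.3%. CDC20, which starts anaphase, was at -1.69, and the median of the list was -0.43. The MKI67 call was lost by DESeq2 (adjusted p = 0.0908) and when low counts were not filtered out (adjusted p = 0.0647), and its log2 fold change was 0.42 without shCON replicate 2, 1.07 without shCON replicate 1 and 0.29 with the length trend removed. Of 11 tested G1 cyclins, kinases and inhibitors, 3 rose, up to 0.99 for CDKN2C, and 3 fell, down to -1.30 for CCND1. Each count is 27.3% of the tested list, beside 21.7% and 20.3% of all tested genes. Within each sample, the median log2 ratio to the shCON mean was -0.02, 0.02, 0.18 and 0.16 over the 48 members and 0.00, -0.00, -0.47 and -0.49 over the mitotic and G2/M genes, in the order shCON 1 and 2, shZDHHC15 1 and 2. The member median minus the mitotic median was thus -0.0254 and 0.0251 in shCON and 0.6458 and 0.6541 in shZDHHC15. The shCON values lie around 0 by construction, as each ratio is to the shCON mean. The 2 lists share every library and were chosen with earlier results of these data known, and no test of the lists was made.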

How the data were processed

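The authors deposited 1 table of raw read counts per gene, not normalized, for 4 samples. The submitters' processing notes name HISAT2, StringTie, SAMtools and hg38, with versions and counting settings, strand included, not given in the sources used here. Gene positions matched GENCODE 29 for all 58735 genes. All 4 sample columns were used and 0 were left out. Counts were scaled by TMM (edgeR 4.0.16, limma 3.58.1, R 4.3.3), filtered with filterByExpr and tested by the quasi-likelihood test between the groups given by the sample titles, with Benjamini-Hochberg adjustment over 15817 genes and a threshold of 0.05. Scripts were tested on simulated data. Samples of one group differed by more than sampling noise (chi-square per degree of freedom 8.32 and 6.79). CPM uses TMM-scaled library sizes, and levels per kilobase use the transcript with the longest coding sequence. Limits from a count of 0 cover counting error only. Alternatives were other scalings and filters, DESeq2 1.42.0, glmTreat, a replicate block, leaving out each sample, and trends on length and GC removed. The members and lists were chosen with earlier results of these data known. Counts per sample are given for the 8 strongest rises and falls that passed and for 8 genes of standard use, and other members by role. Ratios between subunits, POLE3 and the marker values were chosen after values were seen.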

Additional observations from a re-analysis of the deposited data

How the results depend on the processing

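With 2 samples a group, calls near the threshold were unstable. The 15 rises among members became 24 with library size only, 8 with no filter on low counts, 6 with glmTreat against a fold change of 1.2 and 0 beyond a log2 fold change of 1, and the 4 falls became 2, 2, 1 and 0. With 1 sample left out, where the lone sample is assumed to vary like the other group, rises ran from 7 to 15 and falls from 2 to 7, the median from 0.1585 to 0.1757, and among other replication genes rises from 18 to 30 and falls from 6 to 13. glmTreat left 16 rises and 5 falls there. The median over members (0.1787) was 0.2542 with library size only, which put the median of all genes at 0.09, and 0.1474 with upper-quartile factors. With a replicate block 19 members rose and 6 fell. The same-numbered samples correlated at 0.0344 in their deviations. Over tested protein-coding genes, replicate 1 over replicate 2 rose with transcript length in both groups (rho 0.39 in shCON and 0.19 in shZDHHC15). Whether same-numbered samples shared a preparation cannot be told from these values. Signs turned only for members that were not called. SLBP was 0.0075 with library size only, 0.0733 with the length trend removed and 0.0587 with length and GC removed, and RPA3 0.0578, 0.0744 and 0.0557. With the 2 trend removals, chosen after seeing the data, CHAF1B was -0.0556 and -0.0572, RFC4 0.0741 and 0.0514 and RFC1 -0.0063 and -0.0461. RFC2 was -0.0030 with DESeq2 size factors, -0.0215 with upper-quartile factors, -0.0033 by DESeq2 and -0.0079 with no filter. With 1 sample left out, RFC2 ran from -0.0548 to 0.0491, PRIM1 from -0.0567 to 0.101, RPA3 from -0.139 to 0.0824 and RPA2 from -0.0316 to 0.148. The cause was not tested.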
